A study of Mus musculus with 2 samples.

Results

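The genes described here are the mouse Zfp genes that carry a 3-digit number of 500 or higher, taken from a table of nascent transcription in C2C12 myoblasts by their symbol alone. The rule found 210 RefSeq entries of 185 gene symbols, of 24165 entries and 20128 symbols in the table. C2C12 cells are an immortal mouse myoblast line that divides in culture and can fuse into muscle fibres. The 2 replicate libraries came from untreated cells at 80% confluency, with nuclei of 4 plates in each isolation, and no other cell type, treatment or time was measured. In GRO-seq, polymerases engaged on the DNA of isolated nuclei are allowed to run on with bromouridine, and the labelled RNA is captured and sequenced. The authors pooled both libraries into a single value for each entry, the gene activity in RPKmM, which is the number of sense-strand reads in the gene body, from 1 kb past the start to the transcript end, per kilobase of mappable sequence, scaled to sequencing depth. Entries not significantly above the read density of gene deserts, by the authors' Poisson statistics, are marked inactive. An entry somewhat above that density can thus be marked inactive too. As there is 1 pooled value for each entry, no standard deviation, interval between libraries or test could be given, and it was not possible to say whether neighbours in the order of activity differ beyond the spread between libraries. Entries of a gene overlap, and genes are not replicates, so the counts and medians below describe this pool alone.

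Zfp is the mouse symbol for zinc finger protein, and most genes that bear it encode proteins of the C2H2 type. In a C2H2 finger, a pair of cysteines and a pair of histidines hold a zinc ion, which folds a short stretch of protein so that it can read a few bases of DNA. Fingers stand in tandem, so a protein with many of them can read a long site. A large share of these proteins start with a KRAB box, which recruits Trim28 and, through it, enzymes that lay down repressive chromatin. KRAB zinc finger genes multiplied in mammals by tandem duplication and are best known for silencing retroelements and imprinted regions. The labelled cell type was checked on marker genes. All 7 myoblast markers were active, from 0.55 RPKmM for Pax7 to 72.45 for Des, and all 5 markers of differentiated muscle were active as well, from 0.14 for Myh4 to 6.85 for Acta1. Markers of blood, endothelium, epithelium, liver and pluripotent cells were inactive or listed at 0.01.

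To show what the proteins share and how they differ, the coding sequence of 1 finger is given for 4 members, read from mm9 with the codons of the cysteines and histidines in capitals. They are the most active member (Zfp740), the most active one with a KRAB box (Zfp871), the least active of a cluster of 10 (Zfp677), and an inactive KRAB gene (Zfp819).
Zfp740, 2 fingers in its model, chr15:102039241-102039303, plus strand: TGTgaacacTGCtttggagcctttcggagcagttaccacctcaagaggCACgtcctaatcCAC
Zfp871, 15 fingers in its model, chr17:32912500-32912562, minus strand: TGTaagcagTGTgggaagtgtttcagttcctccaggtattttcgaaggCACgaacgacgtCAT
Zfp677, 16 fingers in its model, chr17:21534205-21534267, plus strand: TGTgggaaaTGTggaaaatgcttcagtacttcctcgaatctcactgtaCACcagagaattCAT
Zfp819, 9 fingers in its model, chr7:50872536-50872598, plus strand: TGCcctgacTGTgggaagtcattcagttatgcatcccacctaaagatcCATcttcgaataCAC
Each finger spans 63 bases. The fingers of Zfp871 and Zfp677, from different clusters of chromosome 17, were identical at 38 of 63 bases (60.3%). That of Zfp740 matched Zfp871 at 25 bases (39.7%), the lowest of the 6 pairs.

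Most of the genes were transcribed. Of the 210 entries 188 (89.5%) were active, against 70.2% of all entries in the table, and by symbol 164 of 185 genes (88.6%) had an active entry, against 68.7%. The median activity of active members was 0.80 RPKmM (quartiles 0.375 and 1.62, range 0 to 9.05). That of all other active entries was 0.87 (quartiles 0.22 and 2.00). The ratio of the medians was thus 0.92, and a member was the higher one in 49.8% of all pairs of a member with another active entry. With geometric means and a pseudocount of 0.01 in place of medians the ratio was 1.15, so the direction of this small difference turned with the summary.

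The members differed from the rest of the table more in width than in centre. Their upper quartile was 4.32 times their lower, against 9.09 times among the other active entries. This was not particular to them, as the ratio was 5.22 for Zfp genes numbered below 500, 4.48 for Klf and Sp genes, C2H2 factors that bind GC-rich promoters, and 5.09 for other genes with 2 or more fingers. It did not hold to the same extent for all like genes. Other genes with a KRAB box and 2 or more fingers were wider, at 7.02. An activity of 1 or higher was listed for 78 entries (37.1%), against 32.3% of the table, but only 13 (6.19%) reached 3, against 10.8%. Very low activity was rare, as 12 entries (5.71%) were active below 0.1, against 13.0%. Of the Zfp genes numbered below 500, 195 of 207 entries (94.2%) were active, with a median of 0.72, and 22 (10.6%) were active below 0.1, a larger share than among the members. Klf and Sp genes had 24 of 28 entries (85.7%) active and a median of 1.005.

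**Figure D1:**
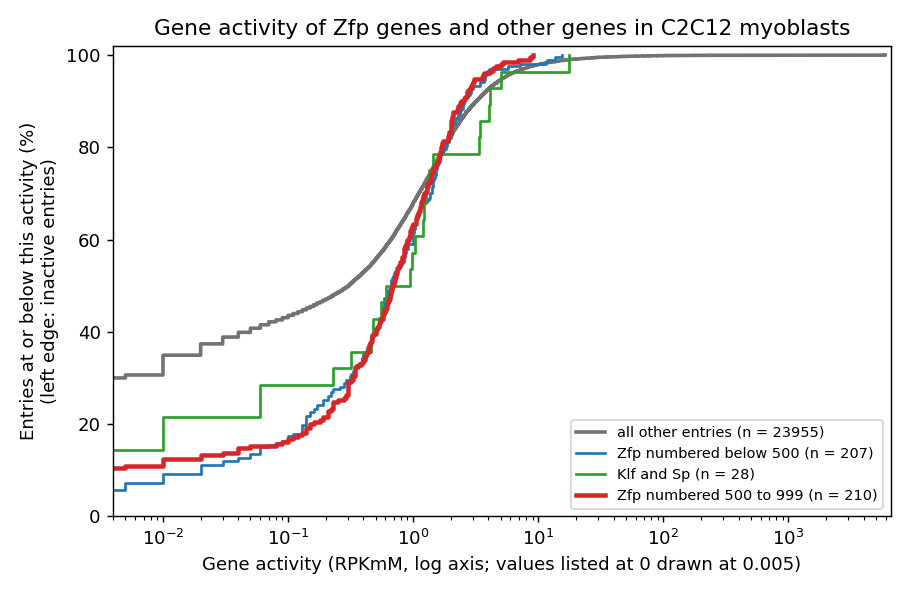
Cumulative share of entries by gene activity in RPKmM (log axis), with the inactive share at the left edge, for the Zfp genes described here (red, n = 210), Zfp genes numbered below 500 (blue), Klf and Sp genes (green) and all other entries (grey). The red curve starts at 10.5%, below the grey one, and crosses it above 1 RPKmM, since few members reached 3 or more.

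Zfp740, which codes for a small protein with 2 fingers at chr15:102034079-102046037 (mm9, plus strand), was the most active. Its 2 entries were listed at 9.05 and 8.55, and the first of them lay above 96.7% of all active entries. Zfp871 followed at 6.84 and was the most active gene with a KRAB box. Zfp865 was listed at 5.25 and Zfp703 at 5.04. Zfp703 is a transcriptional co-repressor of the NET family, with an atypical finger that the pattern used here did not count. The next were Zfp697 (4.57), Zfp771 (4.31), Zfp934 (4.12), Zfp768 (3.70), Zfp948 (3.61) and Zfp644 (3.54), the last of which works with the histone methyltransferases G9a and GLP. Zfp787 (3.08), Zfp568 (3.02), Zfp512b (2.94), Zfp664 (2.89) and Zfp638 (2.85) complete the 15 highest. Of these 15, Zfp871, Zfp948 and Zfp568 matched the pattern of a KRAB box used below, and a looser pattern also matched Zfp934, which made 4.

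At the other end, Zfp804a, a gene of the brain known from schizophrenia genetics, was marked active and listed at 0, a value rounded down from less than the last decimal. Zfp536, a regulator of neuronal differentiation, Zfp583 and Zfp936 were listed at 0.01, and Zfp783 and Zfp791 at 0.02. At 2 decimals these values are too coarse to be put in order. The 22 inactive entries (10.5%, against 29.8% of the table) belong to 21 symbols. Among them are Zfp541, known from meiosis in the testis, Zfp711, an X-linked gene of intellectual disability, Zfp750, a regulator of epidermal differentiation, and Zfp804b, the paralogue of Zfp804a. The others were Zfp534, Zfp572, Zfp575, Zfp600 (2 entries), Zfp612, Zfp616, Zfp618, Zfp641, Zfp648, Zfp663, Zfp735, Zfp819, Zfp831, Zfp872, Zfp879, Zfp941 and Zfp957.

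Of the 185 genes 20 had several entries, and no gene had both active and inactive ones. In 19 all entries were active, and in Zfp600 both were inactive. The highest entry of a gene was at most 1.1 times its lowest in 13 of the 19. Zfp950 differed most, with 0.36, 0.88, 1.15 and 1.23 for its 4 entries, a ratio of 3.42, and another annotated gene overlaps it on the same strand. Zfp672 followed, with 0.53 for a pair of entries, 0.60 and 1.38, a ratio of 2.60. Zfp708 was listed at 0.10 and 0.21, and Zfp809 at 0.44, 0.44 and 0.82.

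A pattern of the KRAB box was sought in the protein models of GENCODE vM1, which 182 of the 185 genes have. It was found in 94 genes and not in 88. A gene whose model lacks its first coding exons would be counted as without KRAB, as would one whose KRAB box departs from the pattern. "Without KRAB" below thus means without a match to the pattern. Both groups were active to a similar extent, 93 of 104 entries (89.4%) with KRAB and 93 of 103 (90.3%) without. Their levels differed. The median activity of the active KRAB entries was 0.58 RPKmM (quartiles 0.30 and 1.1), and that of those without KRAB 1.15 (quartiles 0.62 and 2.00). The median without KRAB was 1.98 times that with KRAB, and the entry without KRAB was the higher in 68.0% of all pairs, so the ranges overlap widely. An activity of 1 or higher was listed for 28 KRAB entries (26.9%) and 50 without KRAB (48.5%). Of KRAB genes outside the group with at least 2 fingers, 122 of 131 entries (93.1%) were active, with a like median of 0.56 but a longer low tail. Their lower quartile was 0.155, and 22 of the 122 active entries lay below 0.1, against 6 of the 93 active KRAB entries described here. The proteins that KRAB boxes work through were transcribed. By the highest entry of each gene, all 18 genes of a list of KRAB corepressors were active and 16 reached 1, with a median of 2.315. Of all symbols 68.7% were active and 31.6% reached 1, with a median of 0.87 among the active. Trim28, the scaffold that binds the KRAB box, was listed at 8.58, Setdb1, which methylates histone H3 at lysine 9, at 5.31, and Chd4, a remodeller of the NuRD complex, at 26.03. Dnmt3a, a de novo DNA methyltransferase, was the lowest, with entries at 0.51, 0.51 and 0.63.

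Fingers were counted in the same protein models. The median was 10 per gene, 12 with KRAB and 7 without. Zfp619 had most, with 33 fingers, and an activity of 0.11. None was found in 11 genes, Zfp503, Zfp608, Zfp609, Zfp616, Zfp703, Zfp704, Zfp750, Zfp839, Zfp850, Zfp950 and Zfp957. In the NET family genes Zfp503 and Zfp703 the finger is of another spacing, while some models of this release, such as the 140 residues of Zfp850, are short. Over the 162 active genes with a model, the rank correlation of activity with the number of fingers was -0.14, and within the KRAB genes and the genes without KRAB it was -0.04 and 0.03. The medians of active entries did not fall steadily, at 1.045 for genes with 0 to 1 finger, 1.31 for 2 to 5, 0.87 for 6 to 9, 0.68 for 10 to 14 and 0.77 for 15 or more. These correlations are across genes, which share domains and reads and are not independent. Gene length, by which activity is already divided, had a rank correlation of 0.04 with activity over 163 genes.

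**Figure D2:**
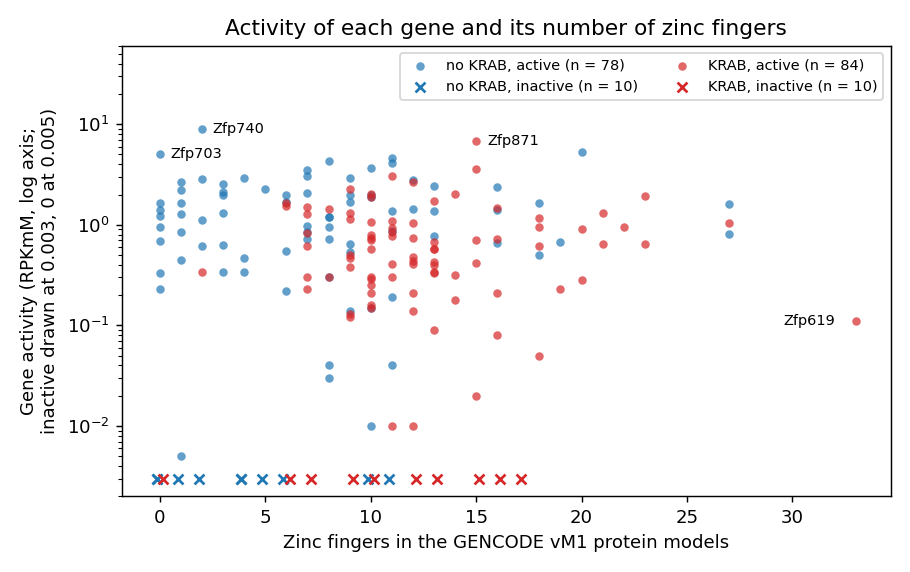
Highest activity of each gene in RPKmM (log axis) against the number of zinc fingers in its protein models, with KRAB genes in red, genes without KRAB in blue, and inactive genes as crosses at the bottom. Genes with few fingers are nearly all without KRAB, Zfp740 lies highest with 2 fingers, and Zfp619 with 33 fingers lies at 0.11.

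The genes were unevenly placed on the chromosomes. Chromosome 7 held 50 of the 183 genes with a position (27.3%), against 7.96% of all symbols with a position, and chromosome 17 held 24 (13.1%), against 4.93%. All 24 on chromosome 17 and all 14 on chromosome 13 were active, and 46 of 50 on chromosome 7, where 70.8%, 70.4% and 66.8% of all symbols were active. On chromosome 11, 5 of 9 were active, and on chromosome 4, 3 of 6, counts too small to be set against the 74.1% and 69.8% of all symbols there. With starts of neighbours no more than 200 kb apart, 79 genes (43.2%) fell into 14 clusters of 3 or more, 7 of them on chromosome 7. Other genes that lie between the members, Zfp genes of lower number among them, were not counted in a cluster. Of the 79 clustered genes 57 had a KRAB box. These were 60.6% of the 94 KRAB genes, while 21 of 88 genes without KRAB (23.9%) were clustered.

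Clustered genes were active more often and at a lower level than isolated ones. In clusters 83 of 85 entries (97.6%) were active, with a median of 0.58 RPKmM, and outside them 104 of 123 (84.6%), with a median of 1.02. The only inactive genes in clusters were Zfp819 on chromosome 7 and Zfp872 on chromosome 9. Among KRAB genes, 61 of 63 clustered entries (96.8%) and 32 of 41 isolated ones (78.0%) were active, with medians of 0.57 and 0.655. Among genes without KRAB, all 21 clustered entries and 72 of 82 isolated ones (87.8%) were active, with medians of 0.68 and 1.215. The higher share of active entries in clusters was thus seen with and without KRAB, and it was with the looser KRAB pattern too (97.1% and 80.0% with KRAB, 100% and 87.2% without). The difference in level without KRAB rested on the pattern. The looser one took Zfp595, Zfp786, Zfp953, Zfp954, Zfp772 and Zfp773 from the clustered genes without KRAB, whose median was then 1.31, against 1.175 for isolated ones. With KRAB the looser pattern gave 0.50 and 0.705, and the narrower one tried first 0.535 and 0.495, so no difference in level between clustered and isolated genes is drawn within either group.

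**Figure D3:**
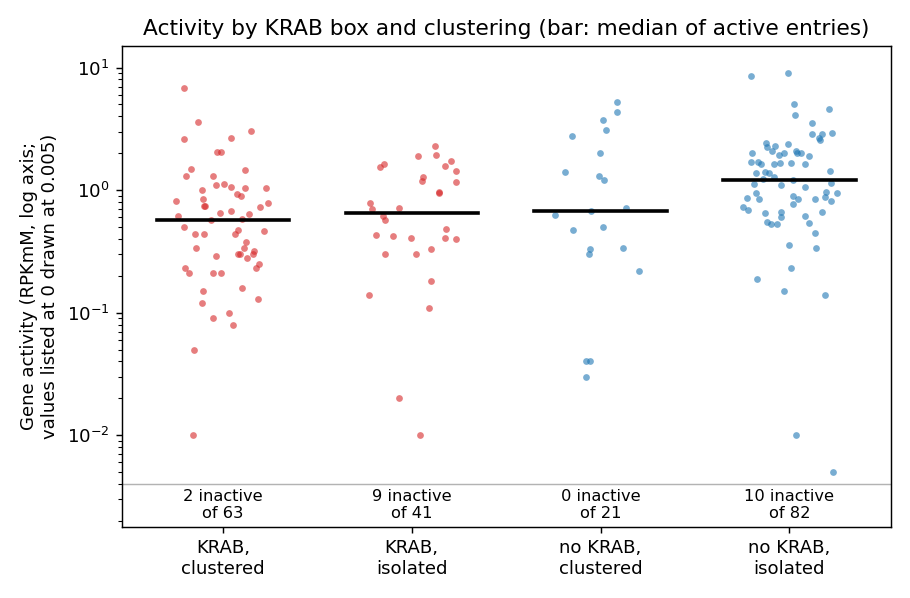
Activity of each active entry in RPKmM (log axis) by KRAB box and clustering, with a bar at the median and the number of inactive entries below. By the main KRAB pattern, isolated genes without KRAB have the highest median, 1.215, which the looser pattern changes, and isolated KRAB genes the most inactive entries relative to their number, 9 of 41.

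By the highest entry of each gene, the spread within a cluster varied, from a highest active member 1.12 times the lowest, in the cluster of Zfp658, Zfp719 and Zfp819, to 308 times, in that of Zfp787 (3.08), Zfp667 and Zfp583 (0.01, a coarse value). In the cluster of 9 KRAB genes at chr17:32908181-33440141 (mm9), Zfp871 was listed at 6.84 and Zfp811 at 0.09, a ratio of 76. In the other cluster of chromosome 17, of 10 KRAB genes, Zfp948 stood at 3.61 and Zfp677, the member next to it, at 0.08, a ratio of 45.1. The fingers printed above for Zfp871 and Zfp677 are thus those of a gene of high and a gene of low activity, both with a KRAB box. The cluster of 10 on chromosome 13 was narrower, from 0.15 for Zfp874a to 1.05 for Zfp729a. On chromosome 7, the 8 genes at 134376575 to 134759311 divided by domain. The 4 KRAB genes were listed from 0.29 to 0.50, and the 4 without it at 0.68 (Zfp629), 2.77 (Zfp553), 3.70 (Zfp768) and 4.31 (Zfp771). Zfp787 (3.08), the only one of the 3 genes of its cluster without KRAB, also stood above the others. This was not so in each mixed cluster, as on chromosome 6 the KRAB gene Zfp777 (1.30) stood above Zfp956 (0.22). On chromosome 9 the KRAB gene Zfp809 stood above Zfp653 (0.63) by its highest entry, 0.82, but below it by its other entries, at 0.44. Zfp956 and Zfp653 matched neither the main nor the looser pattern, though a KRAB box that departs from both would be missed. On chromosome 13 Zfp595 (0.50) and Zfp953 (0.72) matched the looser pattern alone, by which all 10 genes there have KRAB. The 6 genes near the start of chromosome 7, all without KRAB, had Zfp865 at 5.25 and Zfp580 at 0.34. The most active members of the clusters of 5 on chromosomes 6, 8 and 9 were Zfp746 (1.31), Zfp869 (2.67) and Zfp809 (0.82). By its other entries, at 0.44, Zfp809 would stand below Zfp810 (0.74).

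**Figure D4:**
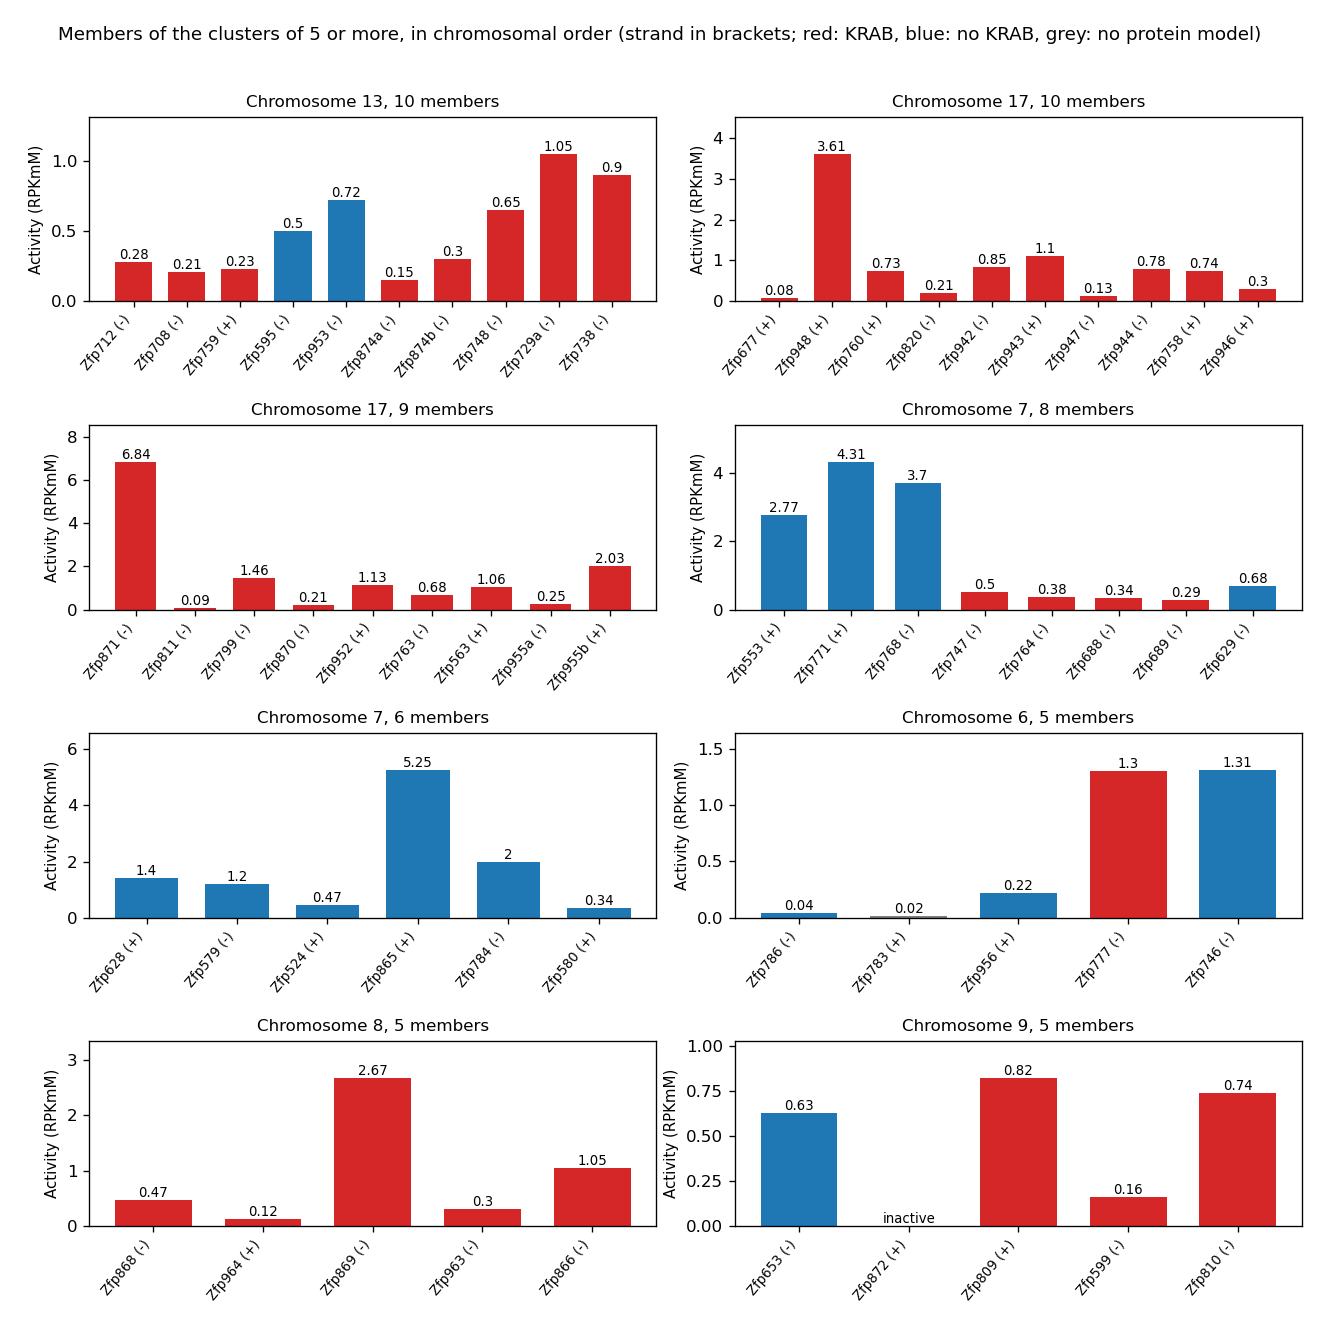
Activity in RPKmM of each member of the 8 clusters of 5 or more, in chromosomal order with its strand, on a separate linear axis for each cluster (highest entry of each gene; red with KRAB, blue without, grey no protein model). Zfp871 and Zfp948 stand far above their KRAB neighbours on chromosome 17, and Zfp872 is the only inactive gene shown.

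Close copies were a further check, since reads that map to several places were discarded and the value of a copy rests on the bases that set it apart. Only 4 genes had a protein of 90% identity or more to another member. Zfp955a and Zfp955b, 95.4% identical, were listed at 0.25 and 2.03. Zfp874a and Zfp874b, 93.1% identical, stood at 0.15 and 0.30. How much of these bodies is mappable is not in the table, so the differences are uncertain. Reads of overlapping genes on the same strand cannot be told apart either. Another annotated gene overlapped 21 of the members on their own strand, and the active ones of these had a median of 0.50, against 0.81 for the rest.

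The lists by function showed the range. Of 4 genes known to repress retroelements or imprinted genes, 3 were active, a share near the 68.7% of all symbols. Zfp568, which represses a placental promoter of Igf2, was listed at 3.02, above 84.7% of all active entries. Zfp809, which silences murine leukaemia virus through its primer binding site, reached 0.82, and Zfp932, a repressor of endogenous retroviruses, 0.71. Zfp819, known from pluripotent and germ cells, was inactive. All 5 genes of RNA and ribosome factors were active at 1 or higher, against 31.6% of all symbols, with a median of 2.57. Zfp598, a ubiquitin ligase that senses collided ribosomes, stood at 2.68, and Zfp622 and Zfp593, factors of the large ribosomal subunit, at 2.57 and 1.66. Zfp638, which binds nucleic acids and the HUSH silencing complex, was listed at 2.85, and the small protein gene Zfp706 at 1.27.

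Of 12 developmental and cell type factors 10 were active, against 68.7% of all symbols, from 0 to 5.04 RPKmM with a median of 1.09. Zfp703 was the highest and its NET family relative Zfp503, a factor of limb and striatal development, stood at 0.69. Zfp516, an activator of brown fat genes, was listed at 2.00 and 1.94 for its 2 entries, and Zfp521, which holds back fat cell formation, at 0.81. Zfp609, a regulator that acts with cohesin loaders, stood at 1.40, Zfp704 at 1.66, Zfp827 at 1.37 and Zfp637 at 0.55. The lowest were Zfp536 at 0.01 and Zfp804a at 0, and Zfp804b and Zfp750 were inactive.

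RefSeq promoters of GRCm38.p6, from 250 bases before to 50 after a start, were available for 154 of the 185 genes, and CpG dinucleotides were counted in the promoter of each gene with most of them. The members had a median of 16 CpG, against 17 for all other genes. KRAB genes had 10 and genes without KRAB 23. Genes of few CpG were often active here. With fewer than 10 CpG, 38 of 47 members (80.9%) were active, against 1860 of 5160 other genes (36.0%). With 10 or more it was 101 of 107 (94.4%), against 8514 of 9885 (86.1%). The active members had medians of 0.635 and 0.82 RPKmM in these classes, and the other genes 0.10 and 1.1. At 10 or more CpG, KRAB genes had a median of 0.645 and genes without KRAB 1.255, and at fewer than 10 the medians were 0.50 and 0.72, the latter from 7 genes. Over the 139 active members the rank correlation of CpG count and activity was 0.25, across genes of different base composition.

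**Figure D5:**
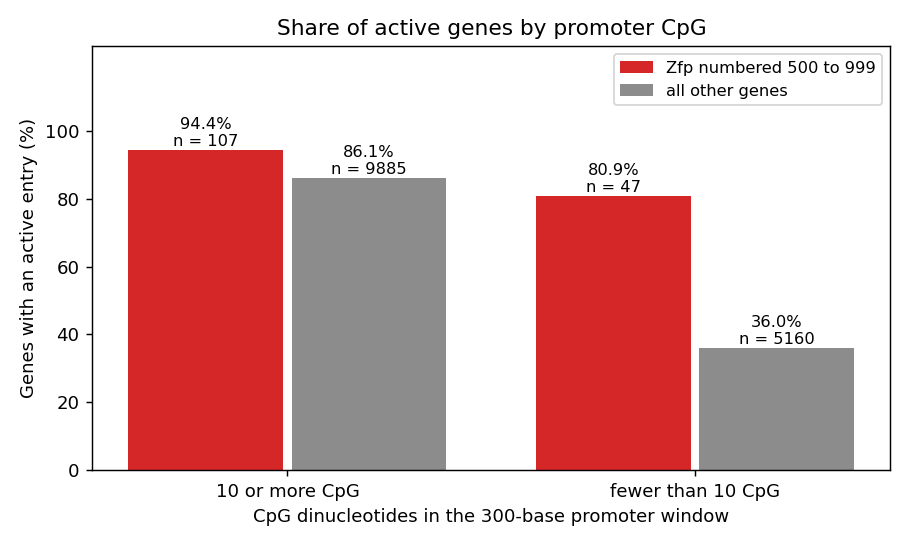
Share of genes with an active entry (%) among genes with 10 or more and with fewer than 10 CpG in the promoter window of 300 bases, for the Zfp genes described here (red) and all other genes (grey). In the CpG-poor class the share is 80.9% for the Zfp genes and 36.0% for the others.

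The first 250 bases of 3 promoters show this range, with CpG in capitals (GRCm38.p6). Zfp740, the most active gene, has 44 CpG in the stretch printed. Zfp869, at 2.67 RPKmM the most active member of the CpG-poor class, has 6. Zfp819 is inactive with 17, so that it is not a CpG-poor promoter.
Zfp740, chr15:102203750-102203999, plus strand: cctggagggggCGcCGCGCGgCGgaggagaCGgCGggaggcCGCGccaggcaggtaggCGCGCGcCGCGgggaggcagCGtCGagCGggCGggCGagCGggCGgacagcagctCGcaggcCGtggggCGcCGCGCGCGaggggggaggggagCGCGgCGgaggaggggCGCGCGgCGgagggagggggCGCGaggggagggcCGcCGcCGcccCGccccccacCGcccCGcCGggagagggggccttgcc
Zfp869, chr8:69716903-69717152, minus strand: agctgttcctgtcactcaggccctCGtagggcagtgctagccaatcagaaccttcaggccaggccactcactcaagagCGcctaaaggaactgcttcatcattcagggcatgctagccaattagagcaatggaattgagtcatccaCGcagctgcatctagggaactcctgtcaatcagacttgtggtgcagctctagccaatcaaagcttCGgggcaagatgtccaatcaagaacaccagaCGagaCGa
Zfp819, chr7:43606919-43607168, plus strand: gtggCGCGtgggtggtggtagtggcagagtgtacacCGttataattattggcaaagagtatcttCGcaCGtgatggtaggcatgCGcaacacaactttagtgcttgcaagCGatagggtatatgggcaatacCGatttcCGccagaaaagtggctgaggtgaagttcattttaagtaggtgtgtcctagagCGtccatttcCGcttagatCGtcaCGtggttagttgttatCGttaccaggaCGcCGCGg
Short motifs were searched on both strands of all 185 promoters of the members, which belong to 154 genes, and 32851 of the whole reference. Promoters of a gene can overlap, so a site may be counted more than once, as in Zfp809 for the Yy1 core below. TATAAA, the TATA box, was found in 10 (5.41%) of the former and 13.6% of all. CCAAT, which Zfp869 holds, was found in 86 (46.5%), against 37.4%, and the GC box GGGCGG in 84 (45.4%), against 35.7%. The palindromes TGCGCA and TGACGTCA, the latter the CRE, were found in 8.65% and 3.24%, against 7.76% and 1.79%. AAGATGGC, a core bound by Yy1, was found in 9 (4.86%), against 2.75%. A match is only a run of letters, and no binding was measured.

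Some genes start head to head with a neighbour. Of the 183 members with a position, 20 (10.9%) had a gene on the opposite strand with its start within 1 kb or overlapping theirs, against 12.9% of all symbols with a position. Of these 19 were active, and their median was 0.85, against 0.755 for active members without such a partner. Over all symbols with a position 90.5% with a partner were active, against 67.9% without, with medians of 0.96 and 0.88, differences in the same direction as among the members. In 3 pairs both genes were members, and their activities were close. Zfp758 and Zfp944, 53 bases apart, were listed at 0.74 and 0.78, Zfp942 and Zfp943, 88 bases apart, at 0.85 and 1.1, and Zfp646 and Zfp668, whose ends overlap, at 1.62 and 2.36. In 13 pairs of a member with another gene both were active, the member was the lower in 4, and the higher gene was a median of 5.25 times the lower. Zfp830, for example, stood at 2.23 and its partner Cct6b at 0.03, 24 bases away, while Zfp511 stood at 0.45 and Tubgcp2 at 0.77. Some of these ratios are coarse, as the partners E130304I02Rik, Zfp652os and 9430065F17Rik were listed at 0.01. The ratio over all such pairs of the table was not computed, so 5.25 has no background to be set against.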

How the data were processed

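GRO-seq of 2 C2C12 replicate libraries was deposited as 1 table of pooled activity per RefSeq entry. The deposited unit, RPKmM, is RPKM over mappable bases of the gene body. The authors mapped reads to mm9 with Bowtie2 (bases called with CASAVA 1.8), trimmed and remapped failures, kept unique reads, removed rRNA and tRNA repeats and pooled the libraries. Per the file headers and the methods the column holds RPKmM rounded to 2 decimals, but 7208 cells hold a word, so its unit was not checked by code. Sequencing depth cannot be read from the rounded values. Pooling hides the spread between libraries, and since only uniquely mapped reads were kept, the value of a close copy rests on fewer bases.

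Positions were matched to GENCODE vM1 (NCBIM37, the same build as mm9) for 183 of 185 symbols, 180 by symbol and 3 by accession and older symbol. Fingers were counted as C, 2 residues, C, 12 residues, H, 3 to 5 residues, H. Identity came from blastp 2.17.0. Promoters were RefSeq's, of GRCm38.p6, and were joined by symbol only. No chance test was made, and each result is a count, share, median, ratio or rank correlation, computed with Python 3.11.15, pandas 2.3.3, numpy 2.4.6, scipy 1.17.1 and matplotlib 3.10.9. The code for shares, ratios and pattern counts was tested on simulated data with known answers.

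The members and lists were chosen with earlier results of these data known. The genes named are the 15 highest, the 5 lowest active above 0, those whose entries differ 3-fold, the highest and the inactive of each cluster of 5 or more, those of most and fewest fingers, and the lists by function. The rest, among them the other inactive genes, Zfp672, Zfp708, the close copies, cluster members given for contrast and the head-to-head pairs, were picked with their values in view. The KRAB pattern was too: a narrower one was tried first, found 62 members and missed well-known KRAB genes, and was widened to 94 on the proteins matched, when activities had already been listed. The CpG split, the motifs and the head-to-head pairs were also set after the values were seen.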

Additional observations from a re-analysis of the deposited data

How the results depend on the processing

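Alternatives were 29 planned and 14 chosen after seeing the data, over 14 results. Each main value had a 95% interval over entries or, for some results, genes (Wilson for shares, order statistics for medians), which says nothing about the libraries. For a ratio only the median on top had such an interval, and the median below was held fixed. An alternative was taken as the same where it lay inside this interval, or within 1.5 times for a count. A ratio also had to stay on its side of 1, and a correlation to keep its sign. That held for 38 of 43. The exceptions turned direction. The ratio of active members to all other active entries, 0.92 by medians, was 1.15 and 1.21 with geometric means and pseudocounts of 0.01 and 0.001; the cause was not tested. The correlation with gene length, 0.04 by ranks, was -0.11 as Pearson's with log2 of activity plus 0.01, which lies inside the interval and differs in sign alone. The ratio of clustered to isolated members without KRAB, 0.56, was 1.11 with the looser pattern, and that with KRAB, 0.87, was 1.08 with the narrower one; both lie inside wide intervals. The median of KRAB over that of other members, 0.50, ranged from 0.48 to 0.55, and was 0.50 with the narrower pattern tried first, 0.54 among isolated members and 0.52 at 10 or more CpG. No paired analysis was possible because the libraries were pooled in the table, and for the same reason neither could be left out. Rounding to 2 decimals limits the lowest values, and what depth limits could not be read from the table.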
